A study of Mus musculus with 6 samples.

Results

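The granzymes, perforin and serglycin make up the killing cargo of cytotoxic lymphocytes. Granzymes are serine proteases that are stored in secretory granules. Perforin, encoded by Prf1, forms pores through which the granzymes reach the cytosol of a target cell. Serglycin, encoded by Srgn, is the proteoglycan whose charged chains hold both kinds of protein inside the granule. Granzyme B cleaves after aspartate and starts apoptosis in the target, whereas granzymes A and K are tryptases. The genes of granzymes C to G lie next to Gzmb and encode related proteases that mouse T cells switch on after repeated or prolonged stimulation.

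The 10 genes were taken by symbol (Gzma, Gzmb, Gzmc, Gzmd, Gzme, Gzmf, Gzmg, Gzmk, Prf1 and Srgn) from a table of 24589 genes, and all 10 symbols were found in it. The cells were wild-type primary mouse CD8+ T cells, stimulated through CD3 and CD28 by antibodies. They were kept for 24 h either in the solvent DMSO or in 20 µM TVA, which is trans-vaccenic acid, a fatty acid of ruminant fat, and each group had 3 of the 6 libraries. All libraries came from activated cells, so resting cells give no baseline here. Nothing in the labels says whether the 3 libraries of a group came from separate mice or cultures, so p-values measure the spread between libraries, which may be technical. In bulk RNA, fewer cells that express a gene and less RNA per cell cannot be told apart.

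The granule genes did not all move the same way with TVA. Perforin transcripts rose by 27.2% and those of granzyme A and granzyme C fell 2.78-fold and 2.15-fold, while the 2 most abundant cargo genes, Gzmb and Srgn, did not pass the test. The values are TPM, a transcript abundance scaled for gene length and to the same total in every library. Changes were tested with limma on log2(TPM + 1), with Benjamini-Hochberg adjustment over the 10866 genes that had at least 1 TPM in at least 3 libraries and a threshold of 0.05. Of the 10 genes, 5 met that filter (Gzma, Gzmb, Gzmc, Prf1 and Srgn), each of them in all 6 libraries. Of these 5, 3 passed the threshold, 1 higher and 2 lower with TVA, where 8.51% of all genes tested passed, 5.28% as higher and 3.23% as lower. The median log2 change was -0.04 over the 5 genes and 0.04 over all genes tested.

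Several facts of the whole table bear on these values. Sequencing depth is unknown, since TPM keeps no trace of it, so no counting error can be given for the genes with few transcripts. The DMSO libraries differed among themselves more than the TVA libraries did, with a median SD of log2(TPM + 1) of 0.081 against 0.043 over the genes tested. The number of genes that passed, 925, went up to 2242 when DMSO replicate 2 was left out, and down to 294 for DMSO replicate 3 and to between 102 and 125 for a TVA replicate. The T cell genes Cd3d, Cd3e, Cd3g, Cd8a and Cd8b1 summed to 1516 to 1638 TPM in the DMSO libraries and 1756 to 1787 TPM in the TVA libraries, so the defining markers of the labelled cell type that the table holds were all abundant.

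Gzmb was by far the most abundant of the granzyme genes. Its TPM was 2978, 3206 and 3064 in DMSO replicates 1, 2 and 3, and 3069, 3150 and 3135 in TVA replicates 1, 2 and 3. The TVA values lay inside the DMSO range. The log2 change was 0.02 (SE 0.04), with a 95% interval from -0.08 to 0.12 (limma adjusted p 0.806), which corresponds to a level with TVA between 0.944 and 1.08 times that with DMSO. Only 64 of the 24589 genes had a higher mean TPM. In TPM, Gzmb alone made up 66.6% to 69.0% of the sum of the 10 genes.

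Srgn came next, at 1290, 1385 and 1469 TPM in DMSO libraries, against 1305, 1365 and 1347 TPM after TVA. Here too the TVA values fell inside the DMSO range. Its log2 change was -0.04 (SE 0.05), with a 95% interval from -0.17 to 0.08 (limma adjusted p 0.598), or 0.891 to 1.06 times the DMSO level. Gzmb and Srgn together held 98.2% to 98.5% of the summed TPM of the 10 genes in every library. That sum was 4347, 4664 and 4601 TPM in DMSO libraries, against 4451, 4591 and 4554 TPM after TVA, so the groups overlapped and the cargo genes took 0.435% to 0.466% of all TPM throughout.

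Perforin followed at a much lower level in both groups. For Prf1 the DMSO replicates 1, 2 and 3 gave 59.1, 49.7 and 47.8 TPM, and the TVA replicates 1, 2 and 3 gave 68.2, 66.8 and 64.2 TPM. Every TVA library lay above every DMSO library, with DMSO replicate 1 the nearest to them, and 38.6% of all genes tested had groups that did not overlap. The means were 52.2 ± 6.07 TPM with DMSO and 66.4 ± 2.05 TPM with TVA (SD, n = 3). The log2 change was 0.35 (SE 0.08), with a 95% interval from 0.17 to 0.53 (limma adjusted p 0.0376). Of all genes tested, 125 rose more. The rise kept its direction but lost its call when certain single libraries were left out. Limma adjusted p-values were 0.0921 without DMSO replicate 3 and 0.121, 0.154 and 0.120 without TVA replicates 1, 2 and 3. Log2 changes in these fits were 0.29 to 0.37. Without DMSO replicate 1 the rise passed at 0.44 (limma adjusted p 0.00316), and without DMSO replicate 2 at 0.32 (0.0350). Its call was also lost when all genes above 0 TPM were tested (limma adjusted p 0.0751).

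Gzmc, which encodes a granzyme that causes a rapid death of target cells with mitochondrial damage, had 13.0, 16.9 and 14.9 TPM in DMSO libraries, against 7.08, 6.77 and 6.95 TPM after TVA. The TVA libraries lay close together and well below all DMSO libraries, the lowest of which was replicate 1. The means were 14.9 ± 1.93 and 6.93 ± 0.156 TPM (SD, n = 3). The log2 change was -0.997 (SE 0.086), with a 95% interval from -1.20 to -0.80 (limma adjusted p 0.00178), and 33 of the 10866 genes fell more. The call held when any of the 6 libraries was left out, with limma adjusted p-values of 0.000265 to 0.0193 over all alternatives.

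Gzma, the gene of the tryptase granzyme A, was low in all libraries, at 5.03, 4.62 and 4.71 TPM in DMSO libraries, against 1.55, 1.92 and 1.69 TPM after TVA. The groups were again far apart compared with the spread within them. The means were 4.79 ± 0.215 and 1.72 ± 0.187 TPM (SD, n = 3). The log2 change was -1.09 (SE 0.07), with a 95% interval from -1.26 to -0.92 (limma adjusted p 0.000644). Adding 1 TPM before the log understates the change of so low a gene, and with 0.1 TPM added the log2 change was -1.43. Gzma kept its call under each alternative in which it was tested.

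**Figure D1:**
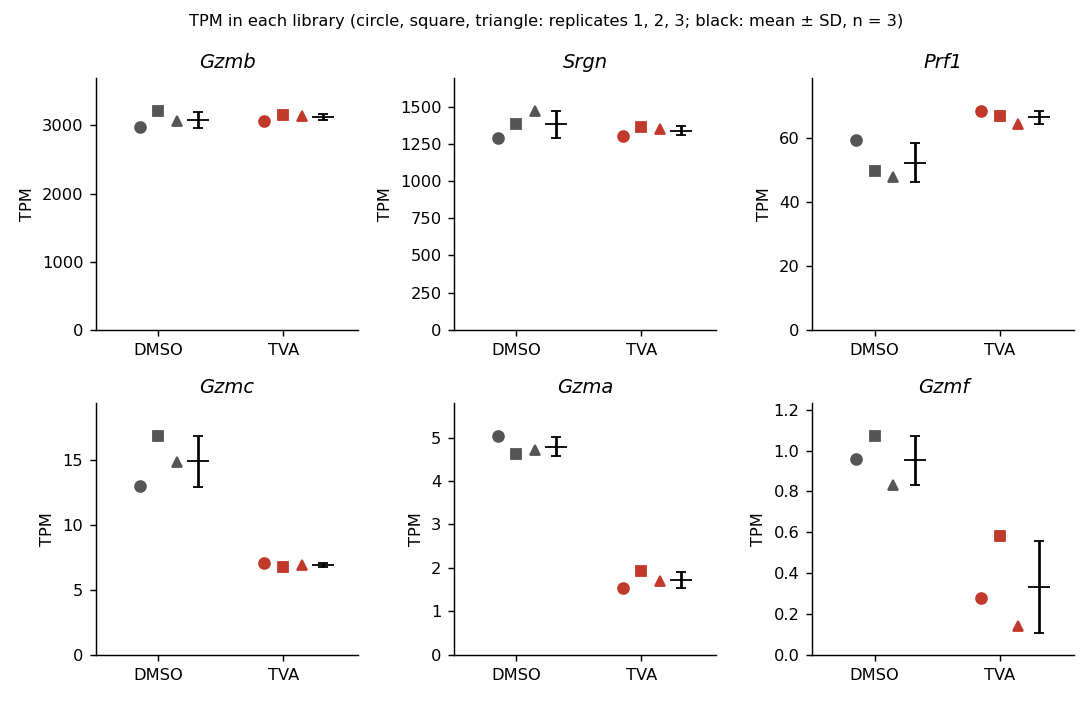
TPM (y axes, each from 0) of 6 of the genes in each of the 3 DMSO libraries (grey) and 3 TVA libraries (red), with the mean and SD in black. The groups overlap for Gzmb and Srgn, the TVA libraries are higher for Prf1 (64.2 to 68.2 against 47.8 to 59.1 TPM), and they are lower for Gzmc, Gzma and the weakly expressed Gzmf.

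The other 5 genes did not reach the filter. Gzmf had 0.96, 1.07 and 0.83 TPM in DMSO libraries, against 0.28, 0.58 and 0.14 TPM after TVA. These values do not overlap, and in a fit over all genes above 0 TPM, to which Gzmf then belongs, the log2 change was -0.56 (limma adjusted p 0.0682). The means differed 2.86-fold (0.953 against 0.333 TPM), and adding 1 TPM before the log understates the change of genes this low. Gzmd had 0.31, 0.15 and 0.12 TPM in DMSO libraries, against 0, 0.11 and 0 TPM after TVA, so the groups were separated by no more than the last decimal of the table (log2 change -0.20, limma adjusted p 0.161 in that fit). Gzmk, a tryptase gene like Gzma, ranged from 0.05 to 0.29 TPM with no order between the groups. Gzme was between 0 and 0.10 TPM and Gzmg was listed at 0 in all 6 libraries.

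The order of the levels in both groups was Gzmb, Srgn, Prf1, Gzmc, Gzma and Gzmf. From Gzmb down to Gzma, and from Gzma to Gzmf, the lowest library of each gene lay above the highest library of the next. Below that the order is not resolved. With DMSO, Gzmf still lay above Gzmd, whereas Gzmd, Gzmk, Gzme and Gzmg overlapped with their neighbours. With TVA, Gzmf, Gzmk, Gzmd, Gzme and Gzmg all overlapped with theirs.

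Because these are ratios within 1 library, levels relative to Gzmb do not depend on how libraries are scaled. Per 1000 TPM of Gzmb there were 1.69, 1.44 and 1.54 TPM of Gzma in the DMSO libraries and 0.505, 0.610 and 0.539 TPM in the TVA libraries. For Gzmc the same measure was 4.36, 5.26 and 4.86 with DMSO and 2.31, 2.15 and 2.22 with TVA. For Prf1 it was 19.8, 15.5 and 15.6 with DMSO and 22.2, 21.2 and 20.5 with TVA. The groups stayed apart for all of these, but for Prf1 the gap between DMSO replicate 1 and TVA replicate 3 was small. Srgn gave 432 to 480 with DMSO and 425 to 433 with TVA, which overlap. The balance between perforin and granzyme C moved as well, from 4.55, 2.95 and 3.21 TPM of Prf1 per TPM of Gzmc with DMSO to 9.64, 9.87 and 9.23 with TVA.

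**Figure D2:**
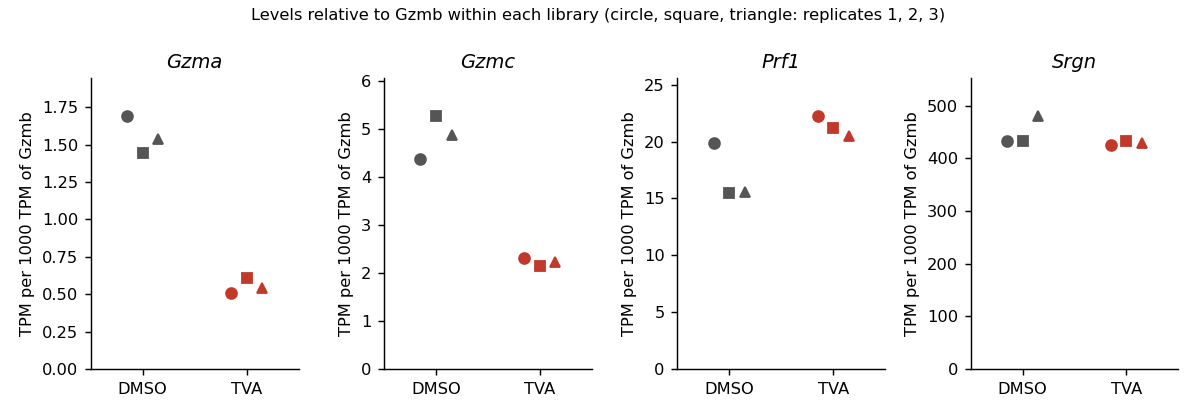
TPM of Gzma, Gzmc, Prf1 and Srgn per 1000 TPM of Gzmb (y axes, each from 0) within each library, DMSO in grey and TVA in red. The TVA libraries lie below the DMSO libraries for Gzma and Gzmc, above them for Prf1 with DMSO replicate 1 (19.8) close to TVA replicate 3 (20.5), and overlap with them for Srgn.

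The 10 genes lie on 3 chromosomes. On the GRCm38 build, to which mm10 corresponds, Gzma (chromosome 13, 113093825 to 113100981) and Gzmk lie together on chromosome 13. Gzmb (chromosome 14, 56258838 to 56262260) and Gzmc (chromosome 14, 56231441 to 56234656) lie with Gzmd, Gzme, Gzmf and Gzmg on chromosome 14. Prf1 (chromosome 10, 61297833 to 61304680) and Srgn (chromosome 10, 62493833 to 62527451) are both on chromosome 10. The falls of Gzma and Gzmc were thus on different chromosomes, and Gzmb, the neighbour of Gzmc, did not pass.

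Reads from similar copies can be exchanged in quantification, so the granzyme C to G genes were also read as a sum. Of all stretches of 50 bases in the Gzmc transcript, 4.14% occur in another granzyme transcript, against 7.36% for Gzmf and 19.8% to 21.9% for Gzmd, Gzme and Gzmg. For Gzma, Gzmb, Gzmk, Prf1 and Srgn the share is 0. The sum over Gzmc, Gzmd, Gzme, Gzmf and Gzmg was 14.3, 18.2 and 15.8 TPM in DMSO libraries, against 7.36, 7.50 and 7.09 TPM after TVA. Gzmc held 90.3% to 98.0% of it in each library, and the sum was lower in every TVA library as Gzmc itself was, while the values of Gzmd, Gzme and Gzmg are uncertain.

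The study asked whether TVA acts through the transcription factor CREB, which binds the cAMP response element. The promoters are therefore shown for the 3 genes that passed the test and for Gzmb as the abundant neighbour of Gzmc. Each is the RefSeq sequence on GRCm38.p6 from 250 bases before to 50 bases after the annotated start, read 5′ to 3′ on the strand of the gene, and capitals mark TGACG, the core of the element, on either strand. The positions are chr10:61297586-61297885 (plus strand) for Prf1, chr14:56234608-56234907 (minus strand) for Gzmc, chr13:113100932-113101231 (minus strand) for Gzma and chr14:56262285-56262584 (minus strand) for Gzmb.
Prf1: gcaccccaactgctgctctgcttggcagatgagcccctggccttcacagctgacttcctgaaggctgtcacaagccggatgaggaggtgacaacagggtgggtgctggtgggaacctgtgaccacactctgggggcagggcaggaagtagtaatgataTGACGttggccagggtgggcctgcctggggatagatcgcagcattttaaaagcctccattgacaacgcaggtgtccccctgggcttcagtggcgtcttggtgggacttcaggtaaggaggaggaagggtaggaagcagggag
Gzmc: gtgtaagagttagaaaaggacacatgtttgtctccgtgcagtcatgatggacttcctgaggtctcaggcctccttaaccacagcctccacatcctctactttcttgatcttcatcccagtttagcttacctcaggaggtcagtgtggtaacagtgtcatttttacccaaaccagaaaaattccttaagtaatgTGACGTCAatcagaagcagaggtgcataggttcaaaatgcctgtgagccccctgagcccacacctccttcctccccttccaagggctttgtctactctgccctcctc
Gzma: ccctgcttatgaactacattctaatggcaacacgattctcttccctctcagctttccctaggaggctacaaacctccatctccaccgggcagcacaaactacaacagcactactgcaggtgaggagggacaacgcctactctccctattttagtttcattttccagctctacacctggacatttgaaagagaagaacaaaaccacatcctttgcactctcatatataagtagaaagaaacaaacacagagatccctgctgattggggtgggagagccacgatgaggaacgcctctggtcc
Gzmb: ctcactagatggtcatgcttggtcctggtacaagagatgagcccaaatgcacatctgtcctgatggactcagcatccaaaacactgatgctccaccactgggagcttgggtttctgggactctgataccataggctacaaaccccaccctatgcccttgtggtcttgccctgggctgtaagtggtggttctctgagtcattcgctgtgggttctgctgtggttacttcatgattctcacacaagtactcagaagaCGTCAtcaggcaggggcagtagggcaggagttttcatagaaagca

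The full element TGACGTCA stands in the Gzmc promoter, with its first base at position -57 from the start. The Prf1 promoter holds the core site only, at position -92, and the Gzma window holds neither. The Gzmb window holds a core site at position 5, behind the RefSeq start. The 2 annotations differ for Gzmb. Its GENCODE gene on the minus strand reaches only to 56262260, so the window from 56262285 lies wholly before the GENCODE start. Of 32851 mouse promoters of this length, 1.79% hold the full element and 20.8% the core site on either strand, the full element containing the core site on both strands. Among the 10 genes, the full element was found for 3 (Gzmc, Gzmf and Gzmg) and the core site for 6, these 3 with Prf1, Gzmb and the second annotated promoter of Srgn. Such matches describe letters in a window and do not show that a factor binds there.

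The chromosome 14 copies share the stretch around that element. The 30 bases below start at positions -65 (Gzmc), -90 (Gzmf), -85 (Gzmg), -69 (Gzmd) and -70 (Gzme), with the full element in capitals where it is present. On GRCm38.p6 they lie on the minus strand at chr14:56234693-56234722, chr14:56211468-56211497, chr14:56159635-56159664, chr14:56132633-56132662 and chr14:56120666-56120695 in the same order.
Gzmc: aagtaatgTGACGTCAatcagaagcagagg
Gzmf: aagtaatgTGACGTCAatctgaagcagagg
Gzmg: aagtaatgTGACGTCAatcagaagcagagg
Gzmd: aagtaatgtgatgtcaaccagaagcagagg
Gzme: aagtaatgtgacatcaaccagaagcagagg

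In this stretch Gzmc and Gzmg have identical letters, and Gzmf carries the full element as well. Gzmd and Gzme do not. Gzmc and Gzmf, which have the element, were lower in every TVA library, as was Gzma, which lacks it. Gzmd, which lacks it, had groups separated by no more than the last decimal, and Gzmg, which has it, was listed at 0. Of these, only Gzmc and Gzma were tested in the main comparison. Whether lower values with TVA go with the element was not tested. Other motifs were searched on both strands of the same windows. The RUNX site TGTGGT was found for Gzma, Gzmb, Gzmc, Gzmd, Gzme, Gzmf, Gzmg, Prf1 and the second promoter of Srgn (16.8% of all promoters), the STAT site TTCNNNGAA only in the Gzmb window (8.30%) and the AP-1 site TGANTCA only in the Gzmb window (7.81%). The T-box site AGGTGTNA was found in none of them (3.03%).

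Other granzyme genes were low. Gzmm, which encodes a granzyme of innate-like lymphocytes, had 1.34 ± 0.156 TPM with DMSO and 1.19 ± 0.101 TPM with TVA (SD, n = 3) and did not pass (log2 change -0.09, limma adjusted p 0.482). Gzmn was listed at 0 in all libraries. Of 8 mast cell protease genes of the chromosome 14 cluster, 4 were listed at 0, 2 were tested and none passed with limma (1 at an unadjusted p under 0.05). Mcpt8, the basophil member, was at 20.5 ± 0.780 TPM with DMSO and 18.5 ± 0.498 TPM with TVA (SD, n = 3; log2 change -0.14, limma adjusted p 0.0913).

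Markers of other granzyme-expressing cells were checked beside Gzma and Gzmc. The 7 NK cell markers analysed summed to 25.3 to 31.8 TPM with DMSO and 31.6 to 33.3 TPM with TVA. The NK receptor genes Ncr1, Klrb1c, Klra8 and Klra4 were between 0 and 0.43 TPM, whereas Klra1 was between 1.55 and 2.22 TPM. Of the 3 markers tested, Tyrobp passed as higher. Klra1 (log2 change 0.16, limma adjusted p 0.304) and Fcer1g (-0.05, 0.786) did not pass. The 8 mast cell and basophil markers summed to 39.6 to 42.1 TPM with DMSO and 35.5 to 36.0 TPM with TVA. Of these, Tpsb2 and Tpsab1 were listed at 0 and 6 were tested. Fcer1a (log2 change -0.42, limma adjusted p 0.0108) and Hdc (-0.51, 0.0172) passed as lower, and Cpa3 did not pass (0.03, 0.789). Their part in the falls of Gzma and Gzmc was not tested.

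Every listed marker of myeloid cells and neutrophils except Cd68 and S100a8 was higher in each TVA library than in each DMSO library. Prf1 was too, and 38.6% of all genes tested had groups that did not overlap. Of these markers, Adgre1, Elane, Prtn3 and Ngp did not reach the filter. The 7 myeloid markers summed to 44.9 to 49.1 TPM with DMSO and 59.9 to 61.5 TPM with TVA, with 1 of the 6 tested past the threshold as higher (Lyz2). The 6 neutrophil markers summed to 10.7 to 15.8 and 18.7 to 21.4 TPM, with 2 of the 3 tested past it as higher (S100a9 and Mpo). No marker of either list was at 0 in every library, and their part in the rise of Prf1 was not tested. The 4 CD4 T cell markers summed to 15.1 to 16.2 TPM with DMSO and 12.2 to 14.2 TPM with TVA (Cd40lg lower), and 4 B cell markers to 11.2 to 14.9 and 10.6 to 10.9 TPM. The 2 markers of gamma delta and NKT cells summed to 1.09 to 1.29 and 0.93 to 1.08 TPM. One gene passed in the CD8 T cell list, Cd3g, as higher, and 3 of its genes were not analysed here.

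**Figure D3:**
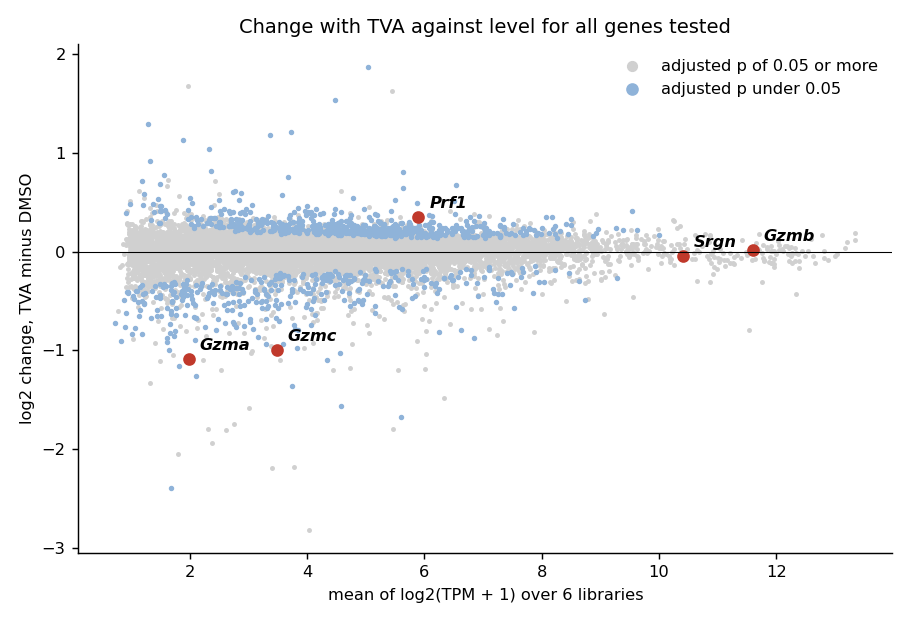
Log2 change with TVA (y axis, TVA minus DMSO) against the mean of log2(TPM + 1) over the 6 libraries (x axis) for the 10866 genes tested, those with an adjusted p under 0.05 in blue and the 5 tested cargo genes in red. Prf1 lies among the larger rises (125 genes rose more), Gzma and Gzmc among the larger falls (27 and 33 genes fell more), and Gzmb and Srgn lie near 0 at the high end of expression.

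Genes that process and restrain the cargo were described next, from a list of 12 granule proteases and inhibitors, all of which were tested. Of these, 3 passed as higher, none as lower and 9 did not pass, with a median log2 change of 0.08 against 0.04 over all genes. Ctsc, whose product dipeptidyl peptidase 1 removes the propeptide that keeps granzymes inactive, rose from 27.6 ± 0.566 to 31.4 ± 0.963 TPM (SD, n = 3; log2 change 0.18, limma adjusted p 0.0423). Ctsb, the gene of cathepsin B, rose from 42.6 ± 1.44 to 50.2 ± 1.05 TPM (0.23, 0.0213). Ctsl, the gene of cathepsin L, rose from 7.14 ± 0.555 to 8.70 ± 0.240 TPM (0.25, 0.0490). These are small shifts, and all 3 calls were lost without DMSO replicate 3 or any one TVA library, those of Ctsc and Ctsl also without DMSO replicate 1. After GC correction the list held 3 calls, but neither Ctsc (log2 change 0.11, limma adjusted p 0.0879) nor Ctsl (0.21, 0.0554) was among them. With quantile normalization, or with median-of-ratios scaling, 1 gene of the list passed.

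Genes of granule trafficking and release moved in both directions. Of 26 genes, 25 were tested and 1 was not analysed here, and 5 passed, 1 higher and 4 lower, with a median log2 change of 0.01. The largest change was in Sytl3, which encodes a synaptotagmin-like protein that binds Rab27. It fell from 58.6, 56.9 and 54.0 TPM with DMSO to 37.1, 38.9 and 38.1 TPM with TVA. All TVA values were lower than all DMSO values, the log2 change being -0.56 (limma adjusted p 0.00120, SE 0.04), and the call held under each alternative. Stx11, the gene of the syntaxin needed for granule fusion, fell from 43.5 ± 3.63 to 33.9 ± 1.20 TPM (SD, n = 3; log2 change -0.35, limma adjusted p 0.0228). Lyst, the lysosomal trafficking gene mutated in Chediak-Higashi syndrome, fell from 27.7 ± 0.999 to 23.4 ± 0.443 TPM (-0.23, 0.0234). Ap3b1, a subunit gene of the AP-3 adaptor that sorts granule proteins, rose from 62.8 ± 1.91 to 77.6 ± 2.48 TPM (0.30, 0.0108). The fifth gene was Sytl1, a paralog of Sytl3 that was named after its values were seen, with a log2 change of -0.37 (limma adjusted p 0.0491). Without DMSO replicate 3 the count was 3, and without TVA replicate 1, 2 or 3 it was 2, 1 and 1. Apart from Sytl3, each of the 4 genes named by rule in this list lost its call without TVA replicate 2 or 3. Stx11 and Lyst also lost theirs without TVA replicate 1, and Stx11 without DMSO replicate 3.

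Serglycin carries chondroitin sulfate chains, and 15 genes for their synthesis were listed. Of these, 12 were tested with limma and none passed (3 at an unadjusted p under 0.05), with a median log2 change of -0.04. The lowest adjusted p was that of Csgalnact2, an enzyme that starts the chain, at 10.2 ± 0.699 TPM with DMSO and 12.3 ± 0.799 TPM with TVA (SD, n = 3; log2 change 0.25, limma adjusted p 0.0588). Without DMSO replicate 2, 2 genes of the list passed.

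Of 5 other killing ligands and cytokines, all were tested and 1 passed. Lta, the gene of lymphotoxin alpha, fell from 220 ± 8.65 to 191 ± 3.42 TPM (SD, n = 3; log2 change -0.21, limma adjusted p 0.0280), a call that was lost without any one TVA library.

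Of 24 regulators of granzyme and perforin genes, 23 were tested and 4 passed, 2 higher and 2 lower, with a median log2 change of 0.05. Eomes, the T-box factor known to drive Prf1 and granzyme genes, rose from 23.5, 20.4 and 21.8 TPM in DMSO replicates 1, 2 and 3 to 32.9, 32.4 and 32.1 TPM in TVA replicates 1, 2 and 3. The groups were far apart, at a log2 change of 0.55 (limma adjusted p 0.00312, SE 0.05) that held its call under each alternative. Il12rb2, the signalling chain of the IL-12 receptor, rose from 39.9 ± 1.33 to 48.6 ± 2.35 TPM (SD, n = 3; 0.28, 0.0205). Stat5a, the factor through which IL-2 induces granzymes and perforin, fell from 164 ± 13.9 to 126 ± 0.140 TPM (SD, n = 3; -0.38, 0.0159). Batf fell from 69.3 ± 4.53 to 56.6 ± 2.95 TPM (SD, n = 3; -0.29, 0.0325). Without DMSO replicate 2 the list held 9 calls, and without TVA replicate 1, 2 or 3 it held 2, 1 and 1. Stat5a and Batf each lost the call without any one TVA library. Il12rb2 lost it without TVA replicate 2 or 3 and without DMSO replicate 3.

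**Figure D4:**
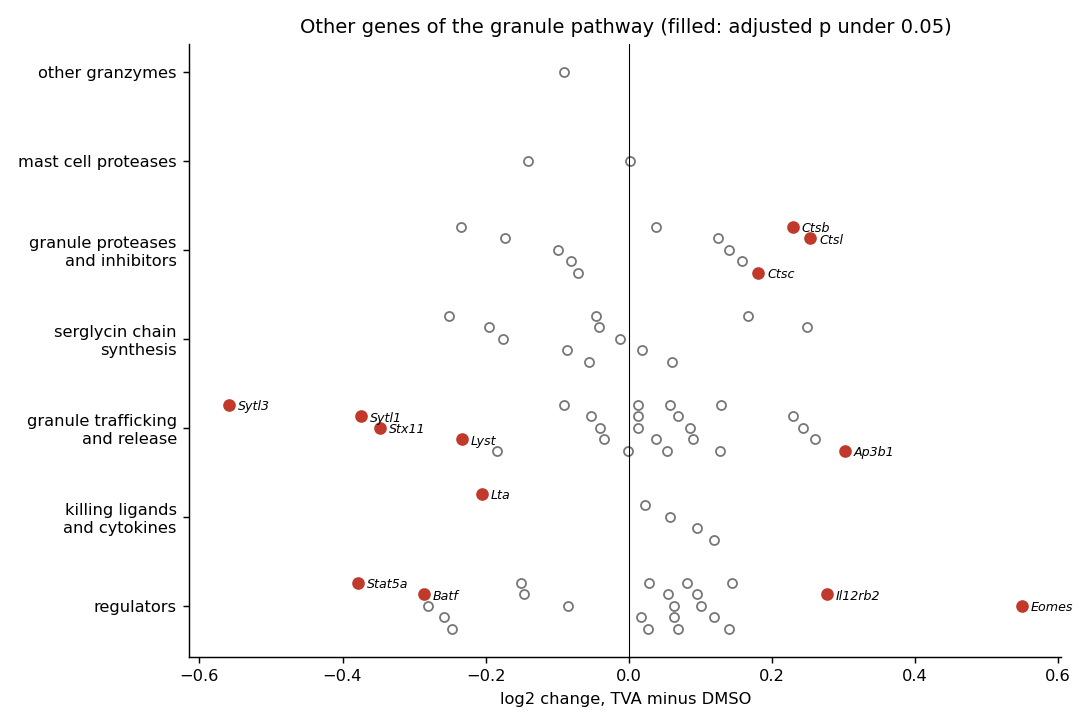
Log2 change with TVA (x axis, TVA minus DMSO) of every tested gene in 7 lists of other granule genes (rows), filled and named where the adjusted p was under 0.05. Most genes lie close to 0, with Eomes (0.55) the furthest to the right and Sytl3 (-0.56) the furthest to the left.

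The genes with the patterns nearest to those of the changed cargo genes were found by the root mean square difference between centred log2(TPM + 1) values over the 6 libraries, given here as a description over points that share the treatment split. Nearest to Gzma were the type 2 cytokine gene Il13 (difference 0.0969), the receptor tyrosine kinase gene Axl (0.114) and the endothelin gene Edn1 (0.138). Nearest to Gzmc were Edn1 (0.103), the cytokine gene Il1a (0.122) and Axl (0.128). Edn1 was low, with means of 1.42 TPM with DMSO and 0.293 TPM with TVA. It met the filter only through the DMSO libraries, so its nearness to Gzma and Gzmc carries little weight. Nearest to Prf1 were Tnip3 (0.0318), Cd14 (0.0481) and Nrip1 (0.0510), all of which were higher with TVA on average.

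**Figure D5:**
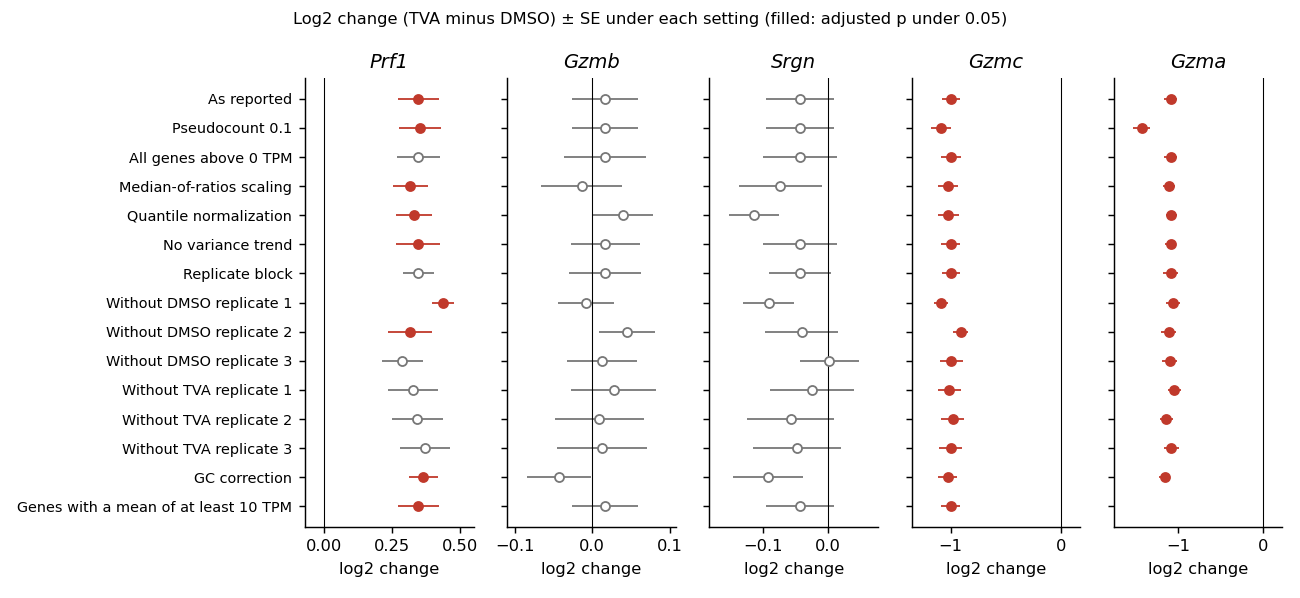
Log2 change with TVA ± SE (x axes, TVA minus DMSO, scaled separately for each gene) of the 5 tested cargo genes under each setting (rows), filled where the adjusted p was under 0.05. Gzmc and Gzma are filled in every row that tests them, Prf1 in 8 of its 14 alternatives, and Gzmb and Srgn in none, their values lying on both sides of 0.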

How the data were processed

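The authors deposited 1 table of TPM per gene for the 6 libraries. STAR, RSEM and the mm10 build are named in the submitters' processing notes. Tool versions and the gene annotation are not given in the sources used here. Each column of the table was matched to a sample by its name. Depth per library cannot be recovered from TPM, so precision rests on the 3 libraries per group.

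TPM values were transformed to log2(TPM + 1), and genes with at least 1 TPM in at least 3 libraries were kept. TVA was compared with DMSO with limma 3.58.1 in R 4.3.3, with a variance trend, moderated two-sided tests and Benjamini-Hochberg adjustment over all genes kept. The script was tested on simulated data. Gene positions and GC content were taken from GENCODE on GRCm38, and GC content was found for 99.4% of genes tested. Promoters were taken from RefSeq on GRCm38.p6.

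The 10 genes and the lists were chosen with earlier results of these data known, and the motifs after the promoter sequences were seen. From each list, the 4 genes with the smallest adjusted p past the threshold were named, or the 1 with the smallest where none passed. For each of the 10 genes that passed, the 3 genes with the nearest pattern were named. Alternatives were another pseudocount, other filters and scalings, no variance trend, a replicate block, a GC correction and leaving out each library. Summaries and plots were made with Python 3.11.15, pandas 2.3.3 and matplotlib 3.10.9.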

Additional observations from a re-analysis of the deposited data

How the results depend on the processing

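Gzma and Gzmc kept direction and call under each alternative that tested them, and 2 or 3 of the 10 genes passed under each alternative. Prf1 missed the threshold at an unchanged log2 change of 0.35 with all genes above 0 TPM tested (limma adjusted p 0.0751), and its change was 0.29 to 0.44 with 1 library left out. Gzmb, at 0.02, was -0.0134 after median-of-ratios scaling, -0.0428 after GC correction and -0.0077 to 0.0455 with 1 library left out. Srgn, at -0.04, was -0.11 with quantile normalization, -0.09 after GC correction, -0.07 with median-of-ratios scaling and -0.0915 to 0.0022 with 1 library left out. None of these Gzmb and Srgn values passed with limma. Over all genes, 925 passed (574 higher), against 494 (270 higher) with all genes above 0 TPM, 608 with a mean of at least 10 TPM, and 102 to 2242 (38 to 1223 higher) with 1 library left out. Quantile normalization gave 357 higher and median-of-ratios scaling 292. The share of calls that were higher was 62.1%, against 46.1% with quantile normalization, 38.7% with median-of-ratios scaling, 51.6% after GC correction and 70.7% with a mean of at least 10 TPM. The list of granule proteases and inhibitors held 1 call instead of 3 with all genes above 0 TPM, with quantile normalization and with median-of-ratios scaling, and 0 to 5 with 1 library left out. Trafficking held 3 instead of 5 with all genes above 0 TPM and 1 to 7 with 1 library left out. With 1 library left out, serglycin chain synthesis held 0 to 2 calls, killing ligands 0 to 1 and regulators 1 to 9, and GC correction gave 1 call among the mast cell proteases. Of 208 values of the 15 listed genes named by rule, 153 kept direction and side of the threshold, 54 lost the call, 1 gained it and none reversed. The cause was not tested. Same-numbered libraries of both groups did not deviate together (correlations 0.16, 0.03 and -0.08), so the replicate numbers were not taken as a pairing. With the replicate block, 218 genes passed (93 higher, 42.7%), Prf1 had a log2 change of 0.35 (limma adjusted p 0.05001), and the lists held 0 calls for granule proteases, 2 for trafficking, 0 for killing ligands and 2 for regulators. Unknown depth limits what can be said of Gzmd, Gzme, Gzmg and Gzmk.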
